A study of Mus musculus with 2 samples.

Results

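The genes of the mouse nucleus that encode the respiratory chain were measured in 2 brain RNA libraries. They were chosen by symbol: names that begin with Nduf, Uqcr, Cox4 to Cox8 or Atp5, together with Sdha, Sdhb, Sdhc, Sdhd, Cyc1 and Cycs, where the anterior table lists the gene as protein coding. The choice used no measured value and gave 97 of the 21802 protein-coding genes found in both tables. Complex I held 44 of them, complex II 4, complex III 9, complex IV 21 and complex V 18, and cytochrome c, the carrier between complexes III and IV, was 1 gene. Another 17 genes fitted the names but were not listed as protein coding and were left out; Ndufb1-ps was the 1 of these with a level (defined below) of at least 5 in both libraries, 19.6 in posterior and 29.9 in anterior tissue.

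The series pairs bulk RNA sequencing with imaging of isoforms in brain slices by MERFISH, a method that reads RNA molecules in place by repeated rounds of fluorescent labelling. The posterior library came from brain tissue matched in position to the imaged posterior slices, and the anterior library from tissue matched to the anterior slices. The titles describe both animals as male C57BL/6J mice of 14 weeks, and the genotype of both is given as WT; no treatment is named. Each position had 1 library of polyA RNA, so there was no replicate, no test and no p-value, and the intervals below cover counting error only.

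The respiratory chain passes electrons from NADH through complex I, or from succinate through complex II, by way of ubiquinone to complex III, cytochrome c and complex IV, where oxygen is reduced. Complexes I, III and IV pump protons across the inner mitochondrial membrane, and complex V, the ATP synthase, lets them flow back to make ATP. Neurons draw much of their ATP from this chain, and each of its complexes except complex II also holds subunits encoded by mitochondrial DNA.

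The posterior library held 147138183 estimated fragments, 134495505 of them in protein-coding genes, and the anterior library 43558839, with 42447919 in protein-coding genes. Position, library and quantification differed together and cannot be told apart. The markers of neurons, glia and vessels were present in both libraries but not in equal amounts, and the ependymal marker Tmem212 had 225 posterior and 0 anterior fragments. The summed level of 5 neuronal markers was 689 in posterior and 1097 in anterior tissue, that of 3 oligodendrocyte markers 774 posterior and 417 anterior, and that of 3 choroid plexus markers 522 posterior and 0.387 anterior. Of the 5 neuronal markers, Gad1 alone went against the sum, with 46.7 in posterior and 41.9 in anterior tissue. The part of cell composition in the values below was not tested. In such bulk tissue, fewer cells of a type and less RNA per cell cannot be told apart.

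Levels are given as fragments per kilobase of gene length, with the gene lengths of the anterior table, per 1000000 fragments in protein-coding genes. The difference of a gene is the log2 of its posterior level over its anterior level, with 0.5 added to each, minus the median of the 12592 protein-coding genes that reached a level of 1 in either library. A gene counted as higher or lower in the posterior library when this difference was at least 2-fold. Of the 97 genes, 94 reached the level of 1 in either library; the other 3 were Cox7b2, Cox8c and a second locus named Atp5o.

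The respiratory chain genes stood at close to the same share of the transcriptome in the posterior and the anterior library. Together they took 0.882% of the posterior and 0.932% of the anterior protein-coding fragments. Their median difference was -0.08, with an interquartile range of -0.20 to 0.09, against a median of 0 and an interquartile range of -0.20 to 0.28 over all protein-coding genes. Of the 97 genes, 91 lay within 2-fold and 83, or 85.6%, within 0.5 on the log2 scale. Of the 94 tested members 85.1% lay within 0.5, where 78.7% of all tested protein-coding genes lay. The tested members were more abundant, with a median posterior level of 44.2 against 7.01 for all tested genes. Ndufs1, the largest iron-sulfur subunit of complex I, was the nearest to the median gene, with a difference of -0.00211, followed by Cox7a2l at 0.00672 and Ndufs4 at -0.00718 among the genes with fragments.

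Beyond 2-fold, 4 genes were higher in the posterior library, where 6.6% of all protein-coding genes were, and 2 were lower, where 1.57% were. The 4 were Ndufb2, Cox8b, Atp5o and Ndufb9, and the 2 were Cox5b-ps and Atp5g2. Of these 6, Cox8b alone shared no exon and no 31-base word with another annotated gene, and it rested on 87 posterior and 5 anterior fragments. Among the 51 members with under 5% of their exons overlapped by another gene and under 5% of their 31-base words found in another gene, 1 was higher and 0 lower, against 3.33% and 1.17% of the 8434 protein-coding genes selected in the same way. Among the 56 members whose span overlapped no other gene, 1 was higher (Cox8b) and 1 lower (Cox5b-ps), against 5.58% and 1.97% of such genes.

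**Figure D1:**
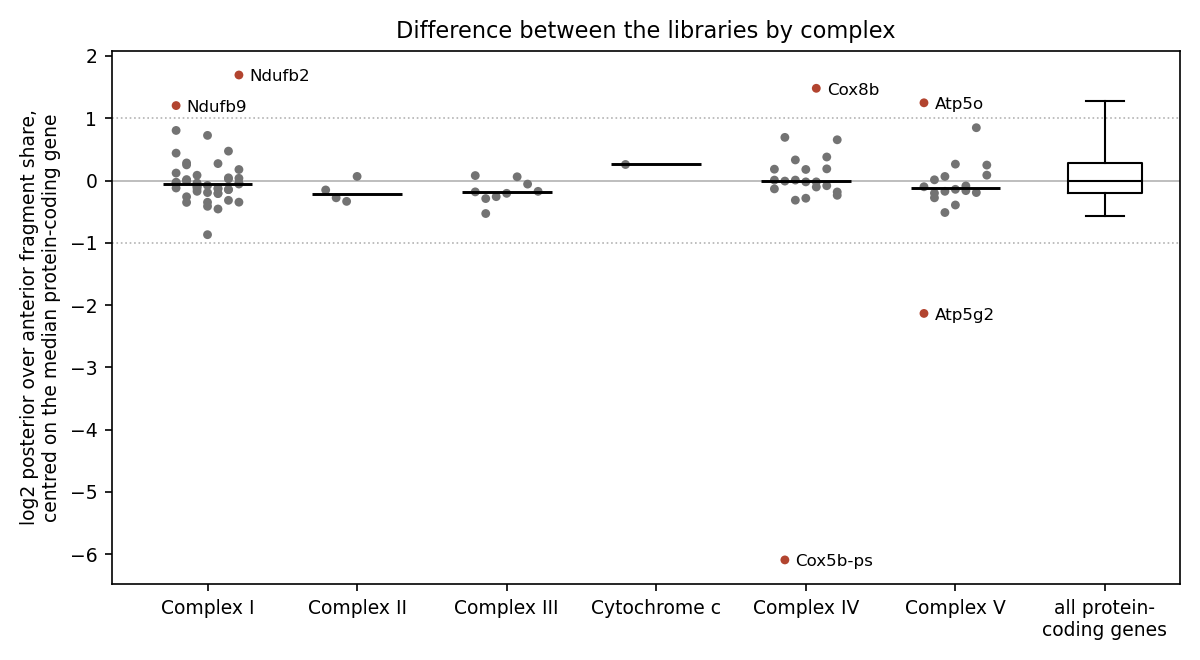
Difference between the libraries (log2 of posterior over anterior, centred on the median protein-coding gene) for each of the 97 genes, by complex; black lines are medians, dotted lines mark 2-fold and red points lie beyond it. The box at the right gives the median and quartiles of all 12592 tested protein-coding genes with whiskers from the 5th to the 95th percentile; the medians of the complexes with more than 1 gene lie between -0.21 and -0.01.

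By complex, the median difference was -0.05 for complex I, -0.21 for complex II, -0.18 for complex III, -0.01 for complex IV and -0.12 for complex V. Below the median gene lay 28 of 44 genes of complex I, 3 of 4 of complex II, 7 of 9 of complex III, 11 of 21 of complex IV and 11 of 18 of complex V. The genes outside complex IV's alternative isoforms had a median of -0.10 over 87 genes. Across the 97 genes, the levels in the posterior and the anterior library had a Spearman correlation of 0.95. These points are genes of the same 2 libraries and share their gene lengths.

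In complex I, the 7 core subunits that carry the flavin and most iron-sulfur clusters had a median level of 46.5 in posterior and 51.5 in anterior tissue. Ndufv1, which accepts electrons from NADH, stood at 46.5 in posterior and 58.4 in anterior tissue. Its difference of -0.32 was the lowest of the core subunits, and 6 of the 7 lay below the median gene, all within 2-fold.

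The 29 accessory subunits of complex I spanned a wider range, from 8.07 to 99.2 in posterior and from 2.28 to 81.2 in anterior tissue. Ndufa8 had 71.6 in posterior and 81.2 in anterior tissue, and Ndufa2 had 69.9 in posterior and 81.1 in anterior tissue. Both were among the most abundant accessory subunits, and both lay within 2-fold. Ndufab1, which is also the acyl carrier protein of mitochondrial fatty acid synthesis, stood at 8.07 in posterior and 5.85 in anterior tissue, but its gene length in the anterior table was 14.6 times its effective length in the posterior table.

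Ndufb9 and Ndufb2, both accessory subunits, were the genes of complex I beyond 2-fold. Ndufb9 had 13752 fragments in posterior and 1882 in anterior tissue, a ratio of shares of 2.31 (95% exact interval 2.20 to 2.42). Ndufb2 had 6400 fragments in posterior and 545 in anterior tissue, a ratio of 3.71 (3.40 to 4.05). Exons of other genes overlapped 19.5% of the exon bases of Ndufb9 and 7.94% of those of Ndufb2, and the part of this overlap in the difference was not tested. Next in size, still within 2-fold, came Ndufa12 with a difference of 0.80, Ndufa11 with 0.72 and, on the lower side, Ndufb4 with -0.87.

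The 8 Ndufaf genes, assembly factors that build complex I and are not part of the finished enzyme, lay at the low end of the levels of complex I, between 3.89 and 12.4 in posterior and between 4.64 and 15.2 in anterior tissue. With all transcripts counted, the 8 lay within 2-fold, with a median difference of -0.17. Ndufaf3 had the lowest difference of them, -0.41, with 2733 posterior and 1168 anterior fragments. With only the protein-coding transcripts of the posterior table counted, and all anterior fragments kept, Ndufaf4 was lower by more than 2-fold. The transcripts left out, on the posterior side alone, held 63.2% of its posterior counts, so this drop follows from the way of counting. Counted in this way, 4 of the 97 genes were higher and 3 lower, where 6.68% and 3.71% of all protein-coding genes were.

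Complex II, which is also an enzyme of the citrate cycle, was led by its flavoprotein Sdha. Sdha stood at 86.2 in posterior and 96.3 in anterior tissue, Sdhd, a membrane anchor, at 44.1 posterior and 53.8 anterior, and the iron-sulfur subunit Sdhb at 36.3 posterior and 46.1 anterior. The other membrane anchor, Sdhc, was the lowest in both libraries, with 20.1 in posterior and 19.2 in anterior tissue, and was the 1 gene of the 4 above the median gene.

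Complex III was the most even of the complexes with more than 4 genes, with a 2.58-fold spread from its lowest to its highest gene in the posterior and a 2.96-fold spread in the anterior library. Its small subunit Uqcr10 stood at 87.6 in posterior and 127 in anterior tissue, a difference of -0.53 that was the lowest of the complex. Another small subunit, Uqcr11, stood at 90.3 in posterior and 85.9 in anterior tissue. The Rieske iron-sulfur protein Uqcrfs1 stood at 67.4 in posterior and 81.2 in anterior tissue. None of the 9 genes reached 2-fold in either direction.

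Cycs, the somatic cytochrome c, stood at 32.4 in posterior and 27.0 in anterior tissue, with a ratio of shares of 1.20 (1.16 to 1.24). Its germ line relative Cyct, outside the membership rule, had 0% of their summed level in posterior and 0.266% in anterior tissue. This rests on 0 posterior and 2 anterior fragments, with an interval of the ratio of 0 to 1.68.

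Complex IV held the most abundant gene of all in both libraries. Cox8a, the common isoform of subunit 8, stood at 369 in posterior and 452 in anterior tissue, Cox6a1 at 265 posterior and 270 anterior, and Cox4i1 at 200.2 posterior and 213 anterior. The 11 common subunits ranged from 40.2 to 369 in posterior and from 35.6 to 452 in anterior tissue. Of the 11, 10 lay below the median gene and none beyond 2-fold. Cox5a was the 1 above it, with 46.1 in posterior and 35.6 in anterior tissue.

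The alternative isoforms of complex IV are best known from heart, skeletal muscle, lung and testis, and most were scarce in both libraries. For subunit 8, Cox8b, the heart and muscle isoform, made up 0.484% of the summed level of Cox8a, Cox8b and Cox8c in posterior and 0.0723% in anterior tissue. Its ratio of shares was 5.49, but the 5 anterior fragments left an interval of 2.27 to 17.3. Cox8c, the testis isoform, had 0 fragments in both libraries, which allows for up to 3 fragments in each.

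The muscle isoform of subunit 6a was the most abundant tissue isoform. Cox6a2 had 741 fragments in posterior and 140 in anterior tissue, a posterior level of 8.10 and an anterior level of 4.85, and made up 2.97% of subunit 6a in posterior and 1.76% in anterior tissue. Its ratio of shares was 1.67 (1.39 to 2.02). In the brain, Cox6a2 is known from parvalbumin interneurons, and their marker Pvalb stood at 45.9 in posterior and 39.9 in anterior tissue. The 5 skeletal muscle markers summed to 3.01 in posterior and 6.12 in anterior tissue. Most of this was Acta1, at 2.41 posterior and 5.34 anterior. Ckm, the muscle creatine kinase, stood at 0.0128 posterior and 0.0485 anterior, on 5 posterior and 6 anterior fragments. Tnnt3 alone went against the sum, with 15 posterior and 0 anterior fragments. The part of parvalbumin interneurons or of muscle in the level of Cox6a2 was not tested.

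Cox7a1, the muscle isoform of subunit 7a, stood at 2.38 in posterior and 1.81 in anterior tissue, with a ratio of 1.32 whose interval of 0.937 to 1.91 includes 1. Cox7a2l, a factor of the same family that joins complexes III and IV, was abundant, at 84.6 in both libraries. It held 47.4% of the summed level of the 3 subunit 7a genes in posterior and 47.3% in anterior tissue, beside 51.3% posterior and 51.7% anterior for Cox7a2.

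Cox4i2, an isoform of subunit 4 known from lung and from mural cells of vessels, stood at 1.56 in posterior and 1.32 in anterior tissue, which is 0.772% posterior and 0.613% anterior of subunit 4. The mural cell markers Abcc9 and Kcnj8 stood at 1.65 and 1.09 in the posterior and at 1.44 and 1.64 in the anterior library. Rgs5, a more abundant gene of the same list of vessel markers, stood at 23.98 in posterior and 30.05 in anterior tissue. The part of mural cells in the level of Cox4i2 was not tested. Ndufa4l2, the relative of Ndufa4, made up 2.28% of their sum in posterior and 1.58% in anterior tissue. Ndufa4, first counted in complex I and now placed in complex IV, itself stood at 90.8 in posterior and 114 in anterior tissue.

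The testis isoform Cox6b2 had 191 fragments in posterior and 30 in anterior tissue, a posterior level of 1.28 and an anterior level of 0.638. It made up 0.823% of subunit 6b in posterior and 0.361% in anterior tissue, beside Cox6b1 at levels of 154 posterior and 176 anterior. Cox7b2, the testis isoform of subunit 7b, had 19 fragments in posterior and 4 in anterior tissue, which is 0.329% posterior and 0.203% anterior of subunit 7b, beside Cox7b at levels of 79.0 posterior and 85.4 anterior.

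**Figure D2:**
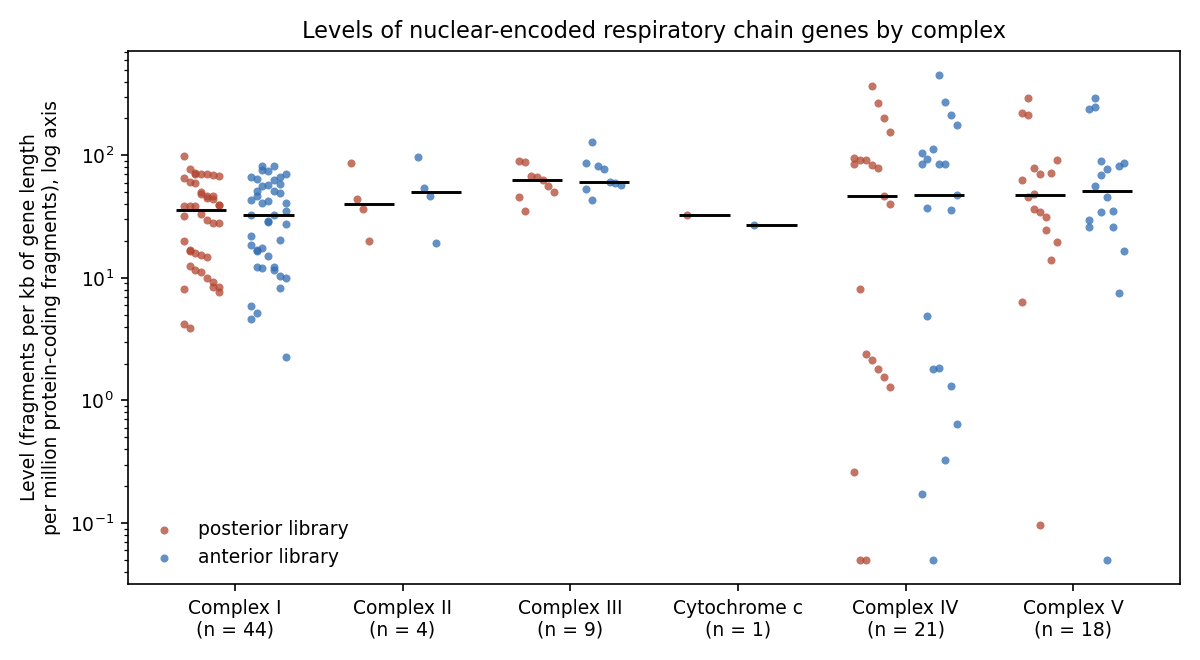
Level of each of the 97 genes (fragments per kilobase of gene length per 1000000 protein-coding fragments, log axis) in the posterior library (red, left) and the anterior library (blue, right), by complex; black lines are medians and levels under 0.05, zeros included, are drawn at 0.05. The scarce isoforms of complex IV form the low group under its abundant subunits, whose highest, Cox8a, stands at 369 in posterior and 452 in anterior tissue.

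In complex V, the 5 subunits of the catalytic F1 head and its central stalk lay close together in their difference, all 5 between -0.20 and -0.10. The catalytic beta subunit Atp5b had 125971 fragments in posterior and 42824 in anterior tissue, the most of the 97 genes, with a posterior level of 221 and an anterior level of 238. The alpha subunit Atp5a1 stood at 214 in posterior and 247 in anterior tissue. Atp5md, a small membrane subunit also called DAPIT, stood at 292 in posterior and 291 in anterior tissue and led the complex in both.

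Among the 5 peripheral stalk loci, which hold the F1 head still against the rotor, Atp5h, Atp5pb and Atp5j lay within 0.28 of the median gene. Atp5o, the oligomycin sensitivity protein, had 16615 fragments in posterior and 2195 in anterior tissue, a ratio of 2.39 (2.28 to 2.50) and a difference of 1.25. Other genes overlapped 47.9% of its exon bases. Among these were the antisense genes Gm15976, with 0 posterior and 2 anterior fragments, and D430001F17Rik, with 6 posterior and 5 anterior fragments. The second locus named Atp5o lay wholly within exons of other genes, those of Atp5o and Donson among them, and had 7 posterior and 0 anterior fragments.

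Of the 5 small membrane subunits, Atp5l, subunit g, had the highest difference, 0.85, with a level of 14.0 in posterior and 7.57 in anterior tissue. Its levels are low beside a gene length in the anterior table that was 23.4 times its effective length in the posterior table. Atp5k, subunit e, had the lowest difference, -0.51, with a level of 48.4 in posterior and 69.6 in anterior tissue. All 5 lay within 2-fold.

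The c ring, the rotor of the ATP synthase, is built from a single mature protein encoded by 3 genes, Atp5g1, Atp5g2 and Atp5g3, which differ in their leader peptides. The last 120 coding bases of each, in the part that encodes the mature protein, show how close the 3 genes are. They are given from the GENCODE M21 transcripts (mm10, all on the minus strand of chromosomes 11, 15 and 2), with the positions that differ among the 3 in capitals.
Atp5g1: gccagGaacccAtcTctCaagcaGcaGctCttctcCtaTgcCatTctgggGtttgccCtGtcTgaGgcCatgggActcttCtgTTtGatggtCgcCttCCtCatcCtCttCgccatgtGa
Atp5g2: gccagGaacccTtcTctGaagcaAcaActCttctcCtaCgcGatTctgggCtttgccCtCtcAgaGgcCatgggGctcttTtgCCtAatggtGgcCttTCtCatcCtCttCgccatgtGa
Atp5g3: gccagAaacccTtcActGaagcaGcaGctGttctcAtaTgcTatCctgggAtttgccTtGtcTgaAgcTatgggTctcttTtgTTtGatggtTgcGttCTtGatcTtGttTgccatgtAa
Over these 120 bases the 3 genes differed at 31 positions, and the pairs were 86.7% identical (Atp5g1 and Atp5g2), 81.7% (Atp5g1 and Atp5g3) and 76.7% (Atp5g2 and Atp5g3).

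Atp5g3 held most of the c subunit RNA in both libraries. By level it made up 73.5% of the 3 genes in posterior and 64.1% in anterior tissue, Atp5g1 20.1% posterior and 12.8% anterior, and Atp5g2 6.48% posterior and 23.0% anterior. Atp5g2 was the gene of complex V that was lower by more than 2-fold, with 1423 fragments in posterior and 2102 in anterior tissue, a ratio of shares of 0.214 (0.200 to 0.229) and a difference of -2.13.

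Atp5g2 has an annotated copy on another chromosome, the processed pseudogene Gm10175 on chromosome 7 (positions 23946646 to 23947290, mm10). The coding sequence of Atp5g2 (chromosome 15, positions 102662864 to 102672352, minus strand) occurs in it without a mismatch over all 441 bases, so the first 120 coding bases are given once for both.
Atp5g2 and Gm10175: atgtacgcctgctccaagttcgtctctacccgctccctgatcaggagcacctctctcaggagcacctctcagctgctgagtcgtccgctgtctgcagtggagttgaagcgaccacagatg
The copy had 5588 fragments in posterior and 29 in anterior tissue. It held 79.7% of the fragments of the pair in posterior and 1.36% in anterior tissue. With the copy added, the difference of Atp5g2 was 0.06 and its ratio of shares 1.04, with an interval of 0.989 to 1.09. Its part of the 3 c subunit genes was then 25.5% in posterior and 23.3% in anterior tissue. How each pipeline assigned fragments that fit both loci is something the sources used here do not state.

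Such copies were looked for around every member, as annotated genes elsewhere that hold at least 10% of its 31-base words, and 17 members had 21 of them. Fragments counted on the copies took a larger share of the pair in the anterior library for 16 copies and in the posterior library for 3, and 2 copies had 0 in both. With copies added, the difference of 4 of the 16 members whose copies held fragments came closer to zero, and the median size of the difference over the 17 was 0.12, against 0.13 for the members alone. With copies added, 4 members were higher and 1, Cox5b-ps, was lower. Cox5b-ps was added to Cox5b as its copy and was itself left as it was. Of all protein-coding genes 6.6% were higher and 1.56% lower, but genes outside the members had no copies added.

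Ndufb4, an accessory subunit of complex I, was the clearest other case on the lower side. Its annotated copy is the processed pseudogene Ndufb4c (chromosome 15, positions 73809507 to 73809896, minus strand). The coding sequence of Ndufb4 (chromosome 16, positions 37647170 to 37654453, minus strand) occurs in it without a mismatch over all 390 bases. The first 120 of them follow.
Ndufb4 and Ndufb4c: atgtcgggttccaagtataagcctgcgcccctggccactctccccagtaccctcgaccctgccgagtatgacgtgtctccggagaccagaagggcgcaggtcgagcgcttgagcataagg
Ndufb4c had 2914 fragments in posterior and 23 in anterior tissue, and Ndufb4 itself 3926 posterior and 2309 anterior fragments. Alone, Ndufb4 had a difference of -0.87; with the copy it had -0.10.

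Ndufa12, another accessory subunit, went the other way. Its copy, listed as Ndufa12-ps in the tables and as Gm15920 in GENCODE M21 (chromosome 5, positions 130188395 to 130188796, plus strand), matched 400 of 402 aligned coding bases of Ndufa12 (chromosome 10, positions 94198720 to 94221443, plus strand). Below are 120 bases around 1 of the 2 mismatches, which is in capitals.
Ndufa12: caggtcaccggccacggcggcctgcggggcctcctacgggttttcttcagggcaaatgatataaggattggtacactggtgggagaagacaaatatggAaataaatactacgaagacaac
Gm15920: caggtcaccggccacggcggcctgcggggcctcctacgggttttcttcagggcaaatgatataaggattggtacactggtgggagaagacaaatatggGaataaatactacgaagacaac
The copy had 12 fragments in posterior and 967 in anterior tissue, where it held 39.6% of the fragments of the pair. The difference of Ndufa12 was 0.80 alone and 0.09 with its copy.

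Cox5b-ps, the gene with the lowest difference of the 97, is itself such a copy. It is an intronless copy of Cox5b, a subunit of complex IV, that the anterior table lists as protein coding. Named Gm11273 in GENCODE M21 (chromosome 13, positions 21501029 to 21501418, minus strand), it matched 387 of 390 coding bases of Cox5b (chromosome 1, positions 36691449 to 36693681, plus strand). The 120 bases below hold 2 of the 3 mismatches, in capitals.
Cox5b: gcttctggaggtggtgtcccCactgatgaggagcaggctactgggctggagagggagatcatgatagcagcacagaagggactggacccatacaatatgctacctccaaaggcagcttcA
Gm11273: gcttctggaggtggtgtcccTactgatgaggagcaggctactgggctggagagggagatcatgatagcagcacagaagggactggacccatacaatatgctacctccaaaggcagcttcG
Cox5b-ps had 2 fragments in posterior and 610 in anterior tissue. Cox5b itself had 17928 in posterior and 5773 in anterior tissue and a difference of -0.02, which became -0.17 with Cox5b-ps added. Of the 31-base words of Cox5b-ps, 74.4% occur in another annotated gene.

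Cycs moved away from zero when its copy was added. Gm10053 holds the whole coding sequence of Cycs, 318 bases, without a mismatch, and had 5692 fragments in posterior and 377 in anterior tissue. The difference of cytochrome c was 0.27 for Cycs alone and 0.60 for both loci together.

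**Figure D3:**
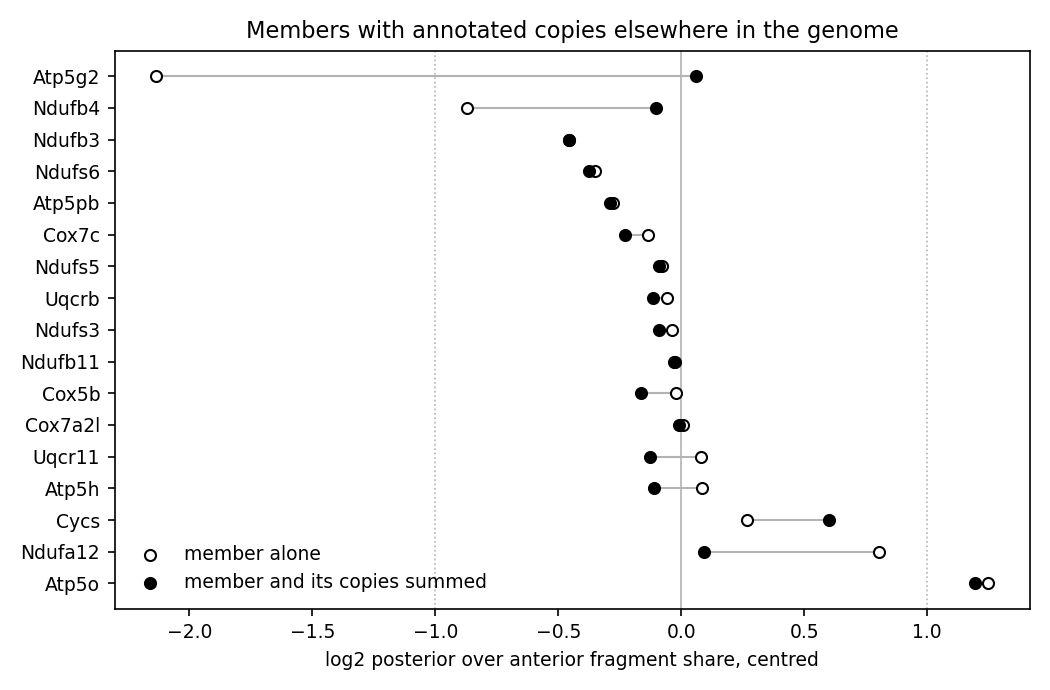
Difference between the libraries (log2 of posterior over anterior, centred) for the 17 members with annotated copies elsewhere in the genome, for the member alone (open circles) and with the fragments of its copies added (filled circles); dotted lines mark 2-fold. Atp5g2 stands at -2.13 alone and at 0.06 with its copy, Ndufb4 at -0.87 and -0.10, and Ndufa12 at 0.80 and 0.09.

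Most respiratory chain subunits are short proteins from short RNAs, and the choice of length mattered for them more than for most genes. The anterior FPKM divide by the length of all exons of a gene, while the posterior values divide by an effective length that follows the transcripts found. For the 97 genes the first was 3.24 times the second at the median, with a range over the measured genes of 1.27 to 23.4, against 1.84 times over all tested protein-coding genes. The median effective length was 440 bases for these genes and 2342 for all.

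When the posterior estimated counts were turned into FPKM with the effective lengths and set against the deposited anterior FPKM, 36 of the 97 genes were higher by 2-fold or more, where 14.5% of all protein-coding genes were, and 2 were lower, where 7.11% were. The median difference of the 97 genes was then 0.49, and that of complex V 1.14. Of the 36 genes, 32 lay within 2-fold by fragment share. Over the 94 genes with a level of at least 1, the FPKM difference followed the log2 of the length ratio with a Pearson correlation of 0.75 and a Spearman correlation of 0.90, and the difference by share had 0.11 and 0.099; the length ratio is itself a term of the FPKM difference.

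**Figure D4:**
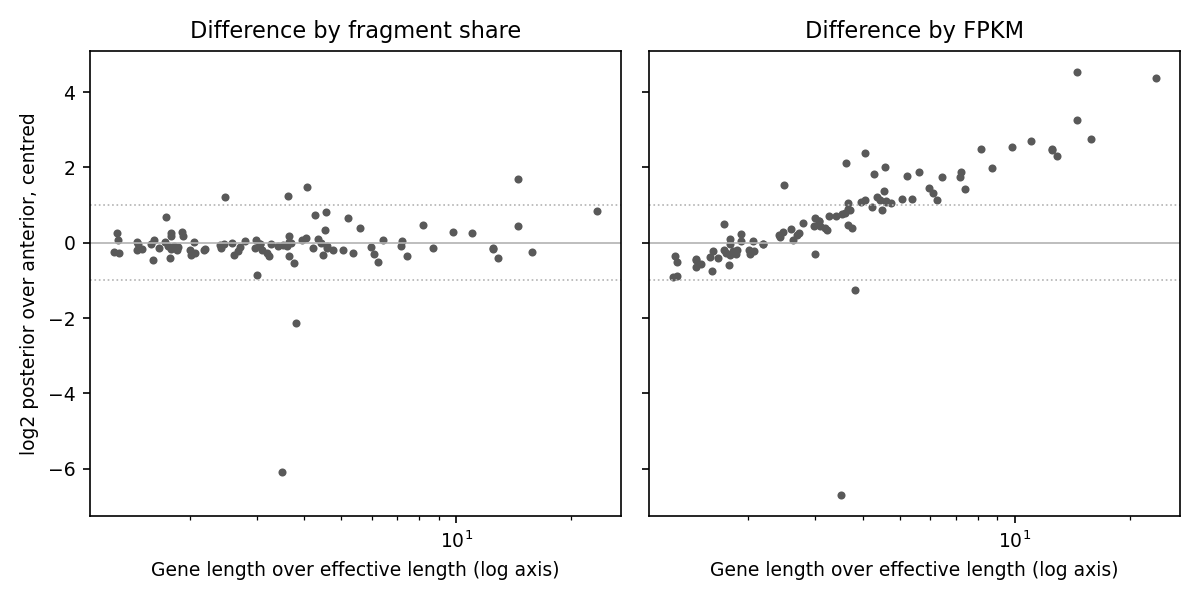
Difference between the libraries for the 94 genes with a level of at least 1, against the gene length of the anterior table over the effective length of the posterior table (log axis), by fragment share (left) and by FPKM (right); dotted lines mark 2-fold. By share 80 of the 94 genes lie within 0.5 of zero across the range of length ratios from 1.27 to 23.4, and by FPKM the points climb with it.

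The order of the genes also depended on this length. By deposited TPM, which uses the effective lengths, Atp5md led the posterior library with 1599, followed by Atp5b with 1525, Cox8a with 1147 and Cox4i1 with 1022. By level, Cox8a led, followed by Atp5md, Cox6a1 and Atp5b. Cox6c, a small subunit of complex IV, had a TPM of 954 and a level of 40.2, with a gene length 15.8 times its effective length. The spread from the lowest to the highest subunit gene of complex I, assembly factors left aside, was 5.56-fold by TPM and 12.3-fold by level in the posterior library.

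The posterior table also resolves transcripts. Of the 97 genes, 93 had a TPM of at least 1, and 83 of these had more than 1 annotated transcript. The leading transcript held a median of 94.2% of the TPM of its gene, at least 90% in 59 of the 93 genes and under 50% in 10. The median and the 59 include 10 genes with a single annotated transcript, whose share is fixed. The leading transcript was protein coding in all but 4 genes.

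Those 4 were all genes of complex I or its assembly. In Ndufs4, an accessory subunit known for the brain disease its loss causes in mice, Ndufs4-202, annotated as a target of nonsense-mediated decay, held 44.0% of the TPM, and the protein-coding Ndufs4-201 held 25.9%. In Ndufa5, the processed transcript Ndufa5-204 held 45.9%, and in Ndufab1, the retained-intron transcript Ndufab1-205 held 29.9%. In Ndufaf4, an assembly factor, the processed transcript Ndufaf4-202 held 68.8%.

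By estimated counts, which do not divide by length, the leading transcript changed in 9 genes, and Ndufaf4 alone was led by a transcript that is not protein coding, with 63.2% of its counts. Ndufs4-201 then held 59.8% of the counts of Ndufs4, Ndufa5-201 60.6% of those of Ndufa5 and Ndufab1-203 60.0% of those of Ndufab1. Atp5b showed the same dependence without a change of leader. Its protein-coding transcript Atp5b-201 held 52.1% of the TPM and 92.0% of the counts, and Atp5b-207, a processed transcript of 343 bases, held 23.2% of the TPM and 1.95% of the counts.

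**Figure D5:**
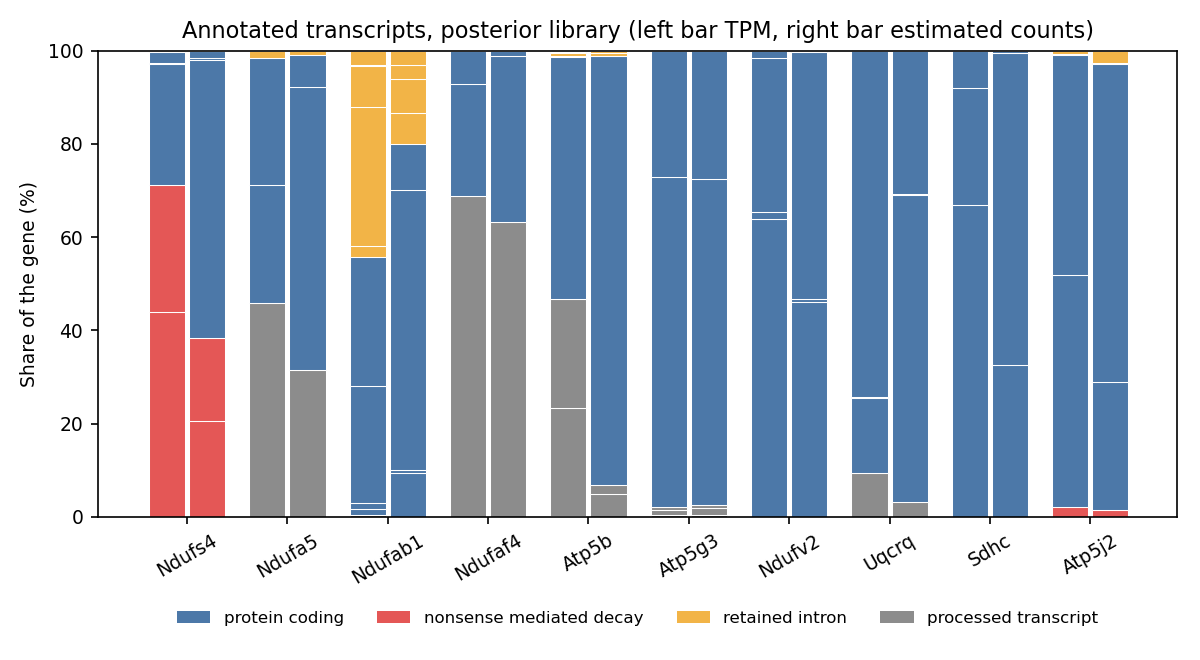
Share of each annotated transcript in the TPM (left bar) and in the estimated counts (right bar) of 10 genes in the posterior library, in percent and coloured by transcript biotype. In Ndufs4, Ndufa5, Ndufab1 and Atp5b the transcripts that are not protein coding take a larger part of the TPM than of the counts; in Ndufaf4 they lead by both, with 68.8% and 63.2%.

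The promoters of these genes are known to bind NRF1, ETS factors of the GABP type, YY1 and estrogen-related receptors. RefSeq promoter windows (GRCm38.p6, 250 bases before to 50 bases after the start) were matched for 77 of the genes and searched for short motifs on both strands, none of which lies within another. The NRF1 motif GCGCATGCG occurred in 11 of the 77, or 14.3%, and in 2.61% of all 17492 genes in the table. The ETS motif CCGGAAG occurred in 24.7% of the members and 12.9% of all genes, the YY1 motif ATGGCGGC in 9.09% and 3.50%, and the estrogen-related receptor motif TNAAGGTCA in 3.90% and 1.19%. The Sp1 motif GGGCGG occurred in 46.8% of the members and 49.2% of all genes, and TATAAA in 10.4% and 14.8%. A match is a match of letters and no evidence of binding.

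The windows of 4 members, Atp5k, Atp5l, Cox6a1 and Uqcr11, held both the NRF1 and the ETS motif. Those of Atp5k and Cox6a1, in which the NRF1 motif reads on either strand of the same run of letters, follow as examples, read on the minus strand with the motifs in capitals. That of Atp5k is chr5:108434350-108434649 and that of Cox6a1 chr5:115348909-115349208 (GRCm38.p6).
Atp5k: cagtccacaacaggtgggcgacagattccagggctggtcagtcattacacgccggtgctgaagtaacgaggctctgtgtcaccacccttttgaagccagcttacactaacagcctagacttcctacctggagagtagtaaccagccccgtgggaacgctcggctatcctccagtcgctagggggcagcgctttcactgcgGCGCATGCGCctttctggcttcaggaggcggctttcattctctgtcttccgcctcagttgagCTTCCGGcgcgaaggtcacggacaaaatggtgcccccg
Cox6a1: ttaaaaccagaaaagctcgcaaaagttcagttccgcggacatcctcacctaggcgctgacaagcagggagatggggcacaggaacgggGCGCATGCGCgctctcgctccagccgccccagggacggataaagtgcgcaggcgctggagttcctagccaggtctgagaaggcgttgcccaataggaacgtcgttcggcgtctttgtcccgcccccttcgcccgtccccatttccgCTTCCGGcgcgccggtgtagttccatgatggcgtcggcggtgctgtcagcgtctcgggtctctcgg
Cox6a1 was among the 3 most abundant members in both libraries, and Atp5k had the lowest difference of the membrane subunits.

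Of 78 other nuclear genes of respiratory chain assembly, electron entry and regulation, 7 were higher in the posterior library and 0 lower, where 6.6% and 1.57% of all protein-coding genes were, with a median difference of -0.05. The 7 were Sdhaf1, Sco2, Cox16, Cox17, Cox20, Pet117 and Etfb, and 6 of them, all but Cox17, had most of their exon bases overlapped by other genes. Cox17, a copper carrier to complex IV, had 4213 fragments in posterior and 205 in anterior tissue, a ratio of 6.49 (5.64 to 7.50). Sco2, a copper chaperone of complex IV, had 1543 fragments in posterior and 0 in anterior tissue, so that it was at least 162-fold higher posteriorly, taking 3 fragments as the anterior limit; the lower end of its exact interval was 132. Other genes overlapped 91.8% of its exon bases.

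The most abundant of each list by the mean of both libraries were Dmac1 for complex I (17.8 in posterior and 24.3 in anterior tissue), Sdhaf4 for complex II (12.7 posterior and 14.2 anterior) and Uqcc2 for complex III (50.2 posterior and 56.2 anterior). They were Higd2a for complex IV (59.4 posterior and 71.3 anterior, beside 60.1 posterior and 53.6 anterior for Cox14) and Tmem70 for complex V (19.5 posterior and 19.1 anterior). Coq2, of ubiquinone synthesis, led the genes of electron entry and carriers with 23.0 in posterior and 24.4 in anterior tissue. The 13 regulators of mitochondrial biogenesis all lay within 2-fold; Esrra was the most abundant, with 20.3 in posterior and 18.4 in anterior tissue, and Ppargc1a, the coactivator PGC-1alpha, stood at 8.50 posterior and 8.32 anterior.

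The 13 subunits encoded by mitochondrial DNA had a median level of 77.6 times that of the 78 main nuclear subunit genes in the posterior and 35.7 times in the anterior library. The lower anterior value went with 6 mitochondrial genes that were higher in the posterior library, 5 of which share 98.1% to 100% of their 31-base words with other annotated genes, among them mt-Co2 with 178574 posterior and 2732 anterior fragments. The other of the 6 was mt-Atp8, with 7.47% of its words shared, 145923 posterior and 75 anterior fragments. These 6 stood between 8.66 and 94.1 in the anterior library, against a nuclear median of 53.2 there. The gene mt-Nd6, with 7.36% of its words shared, was lower in the posterior library, with 11428 posterior and 41901 anterior fragments and a difference of -3.53. Over the 6 genes with under 20% of their words shared, mt-Atp8 and mt-Nd6 among them, a limit chosen after the values were seen, the median was 71.0 times that of the nuclear genes in the posterior and 48.5 times in the anterior library.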

How the data were processed

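PolyA RNA of 1 posterior and 1 anterior brain sample was sequenced as paired-end Illumina reads, per the labels. Neither library has a replicate. For the anterior sample the authors deposited FPKM per gene, with HISAT2 2.0.5 and mm10 named in the submitters' processing notes. For the posterior sample the authors deposited Salmon estimated counts (expected counts), TPM and lengths per transcript; its build is given as mm10, and no source used here gives the Salmon version.

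The anterior FPKM times gene length were whole multiples of 1 step (largest deviation 7.99e-08 of a step), which gave back whole fragments. Posterior estimated counts were summed per gene. The fragment share, which needs no length, is the main scale, and FPKM is an alternative, since the 2 tables define length differently for short genes. Ratios carry exact Clopper-Pearson intervals at 95%. A gene is called at 2-fold or more. Library totals limit precision for the scarce isoforms: a gene at 0 may hold up to 3 fragments.

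Of 140992 posterior transcripts, 139172 are in GENCODE M21, whose exons and sequences gave overlaps, shared 31-base words and copies. Coordinates are mm10. The scale was tried on simulated counts, with both libraries drawn from the anterior shares and known fold changes set in well-counted genes. The simulation did not model overlapping genes, copies or a second quantification. It therefore cannot test calls that rest on these or on few fragments. The genes described by name are the 3 most abundant per complex, those beyond 2-fold, paralogs of a subunit, genes with a level under 1, genes led by a transcript that is not protein coding, the 3 nearest to the median gene and, per pathway list, the most abundant and those beyond 2-fold; others named were chosen after their values were seen. A gene that this rule names is not reported here. The members, lists and tests were chosen with earlier results of these data known. Alternatives were other lengths, pseudocounts of 0.1 and 1, other totals, no filter or a level of 5, no centring, protein-coding transcripts only and genes without span overlap; sums with copies and genes without exon overlap or shared words were added after seeing the data. Tools were Python 3.11.15, pandas 2.3.3, numpy 2.4.6, scipy 1.17.1, matplotlib 3.10.9 and biopython 1.88.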

Additional observations from a re-analysis of the deposited data

How the results depend on the processing

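No paired analysis was possible because each position had 1 library, and for the same reason no replicate could be left out. The scale changed most. By FPKM the median difference of the 97 genes was 0.49 and 36 were higher, and of the 78 nuclear pathway genes 12 were higher and 2 lower. On that scale 14.5% of all protein-coding genes were higher and 7.11% lower. With posterior protein-coding transcripts only, and all anterior fragments kept, 6 pathway genes and 3 members were lower, where 3.71% of all protein-coding genes were. Among genes without span overlap, 1 member was higher and 1 lower (5.58% and 1.97% of all such genes) and 0 pathway genes were higher. With copies added, 1 member, Cox5b-ps, was lower and Atp5g2 turned to 0.06 on the log2 scale (0.0605). Of all protein-coding genes 1.56% were lower, with no copies added for genes outside the members. Among genes without exon overlap or shared words, 1 member was higher and 0 lower (3.33% and 1.17% of all such genes), and 0 pathway genes were higher. Without span overlap 54 members were tested, and without exon overlap or shared words 49. In the main setting and with copies added 94 were tested. The cause of the drops was not tested.

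In the posterior library the shares of Atp5g1, Atp5g2 and Atp5g3 were 35.8%, 4.01% and 60.2% by TPM, 36.6%, 4.03% and 59.4% by fragments with no length, and 16.0%, 25.5% and 58.6% with copies. In the anterior library they were 26.1%, 16.0% and 57.9% by fragments with no length. By TPM the spread over the complex I subunit genes was 5.56-fold. By estimated counts 1 leading transcript was not protein coding. By TPM the mitochondrial subunits stood 34.4 times above the nuclear ones in the posterior library. Of 63 values of the genes beyond 2-fold under the alternatives, 62 kept their direction and their side of 2-fold. Genes that an alternative left out are not among the 63. Without span overlap only Cox8b and Cox5b-ps remained, and without exon overlap or shared words only Cox8b. Many of the 63 values could hardly move, so the count of 62 says little about them. Having no centring, no filter or a filter at a level of 5 shifts all genes alike, and other totals shift them nearly alike. Adding copies leaves genes without copies nearly as they were. Depth limits Cox8b, Cox7b2 and Cox8c, with 5, 4 and 0 anterior fragments.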

Other observations

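Outside the membership rule, several genes that share a name with the chain but are not listed as protein coding held fragments mainly in the anterior library. Ndufab1-ps had 0 fragments in posterior and 146 in anterior tissue, Atp5pb-ps 1 posterior and 94 anterior, Ndufs6b 0 posterior and 29 anterior, and Ndufs5-ps 0 posterior and 21 anterior. Ndufb4c, with 2914 in posterior and 23 in anterior tissue, was the other way round.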
